A study of Mus musculus with 24 samples.

Results

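The net change of maturation was measured between the last and the first of 4 sorted stages of eosinophil development, in the bone marrow of mice in steady state. The comparison took in the 3 libraries titled stage IV and the 3 titled stage I in steady state, 6 of the 24 samples of the series. The other 18 samples are stages II and III in steady state and stages I to IV from mice given interleukin 33 (IL-33), an alarm cytokine of damaged barriers. The question put to these 6 libraries was which messenger RNAs were kept, lost and gained over the whole course.

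The stage IV group held the most mature cells of the marrow and the stage I group the earliest precursors of the 4 stages. Both groups came from untreated wild type mice of strain C57BL6, and each library was made from cells pooled from 3 mice, so a library is a mean over animals. Age and sex are not given in the labels. Magnetic beads took out cells with CD45R, CD90.2, Ly6G or NK1.1. The stages were then told apart by flow cytometry on CD117, CD200R3, CD29, Pir-A/B, CD55, F4/80 and Siglec-F. The genes of these surface proteins are therefore not independent of the groups. For the one comparison with IL-33, the mice had received 400 ng of IL-33 into the peritoneum each day for 7 days and were otherwise of the same strain and genotype. All groups are wild type. Neither the labels nor the design text names a batch.

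Eosinophils are granulocytes that arise from myeloid precursors in the bone marrow under IL-5 and the transcription factors of the GATA, C/EBP and PU.1 families. Their precursors divide while they synthesize large amounts of cationic granule proteins, which are folded in the endoplasmic reticulum and packed into specific granules. They then stop dividing, and the mature cell leaves the marrow with its granules filled, carrying receptors for chemokines, complement and lipid mediators.

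Gene counts summed to between 8335138 and 12471435 in the 6 libraries, and 12160 to 13226 genes had at least 1 count. Levels are given in CPM, the count of a gene relative to a library size corrected by the TMM method. Within a stage, the chi-square over its degrees of freedom was 40.3 to 130, so the spread between libraries far exceeds that of counting. The third library of both stages stood apart. The summed level of 22 immediate early genes was 25860.1, 25317 and 45064 CPM in the stage IV libraries and 6843, 10690.5 and 24748 CPM in the stage I libraries, highest in the third library of each stage. The share of reads assigned to no gene was 19.7%, 27.2% and 30.5% in stage IV and 19.9%, 20.4% and 22.1% in stage I. Where leaving out the third libraries of all 4 steady state stages turned a list balance or a gene's call that is reported below with its values, both values are given.

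Of the eosinophil markers, Prg2, Siglecf, Il5ra, Alox15 and Adgre1 were counted in all 6 libraries at over 100 CPM. Mean levels were 21.8 CPM in stage IV against 14098 CPM in stage I for Epx, 54.2 CPM in stage IV against 4980.1 CPM in stage I for Prg3 and, for Ccr3, 1991 CPM in stage IV against 3.03 CPM in stage I. Markers of other cells were low in both stages with some exceptions. Monocyte and macrophage markers had a summed level of 1954, 1917 and 2112 CPM in the stage IV libraries and 912, 1042 and 972 CPM in the stage I libraries, and 10 of 18 were called higher in stage IV. Neutrophil markers summed to 24563, 11868 and 28660.4 CPM in the stage IV libraries and 10246, 2980.1 and 12186 CPM in the stage I libraries, with 3 of 16 called higher. Within each stage the second library had the lowest neutrophil sum. None of the markers of these 2 cell types was at 0 in all 6 libraries. Basophil and mast cell markers summed to 1076, 605 and 1353 CPM in the stage IV libraries and 2798, 3379 and 2349 CPM in the stage I libraries, with 2 of 10 tested called higher and 5 called lower. The mast cell genes Tpsb2, Tpsab1 and Mcpt4 had no count in any of the 6 libraries. Markers of T and NK cells summed to 52.7, 38.3 and 46.5 CPM in the stage IV libraries and 1156, 1023 and 733 CPM in the stage I libraries, most of it from Nkg7, and Cd8a and Gzma were at 0 throughout. Of 9 B and plasma cell markers tested, 1 was higher and 1 lower, and of 9 dendritic cell markers 2 were higher and none lower. Over all genes tested, 21.1% were called higher and 22.7% lower. The shares called higher of dendritic cell markers (22.2%) and neutrophil markers (18.8%) lay near that of all genes. The globin genes Hba-a1, Hba-a2, Hbb-bs and Hbb-bt were at 0 in all 6 libraries, as was the platelet gene Ppbp. The whole erythroid list summed to 79.9, 130 and 102 CPM in the stage IV libraries and 144, 243 and 272 CPM in the stage I libraries. Of 8 tested, 2 were lower and none higher, or 2 lower and 1 higher without the third libraries. Means were 24.6 CPM in stage IV against 146 CPM in stage I for Tfrc and, for Klf1, 3.85 CPM in stage IV against 16.6 CPM in stage I. In such bulk samples, fewer cells of a type and less RNA per cell cannot be told apart.

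Of 12743 genes tested, 5587 (43.8%) differed between stage IV and stage I at an adjusted p under 0.05 in edgeR's quasi-likelihood test. Of these, 2692 were higher in stage IV (21.1% of genes tested) and 2895 lower (22.7%). The difference was at least 2-fold in 2185 of the higher and 2529 of the lower genes, and at least 10-fold in 518 and 703. The median log2 fold change over all genes tested was -0.03. When libraries were scaled to their totals in place of TMM, the median shifted to -0.37 and the split moved to 1945 higher and 3707 lower genes. Another 616 genes (4.83%) were called kept, meaning that a change of 2-fold or more in either direction was rejected. Of these, 3 also passed as different by less than 2-fold, and 6543 genes were neither called nor kept. The lists of genes below had been drawn up with results of these libraries known, so their counts describe them, and each median stands beside -0.03 over all genes.

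**Figure D1:**
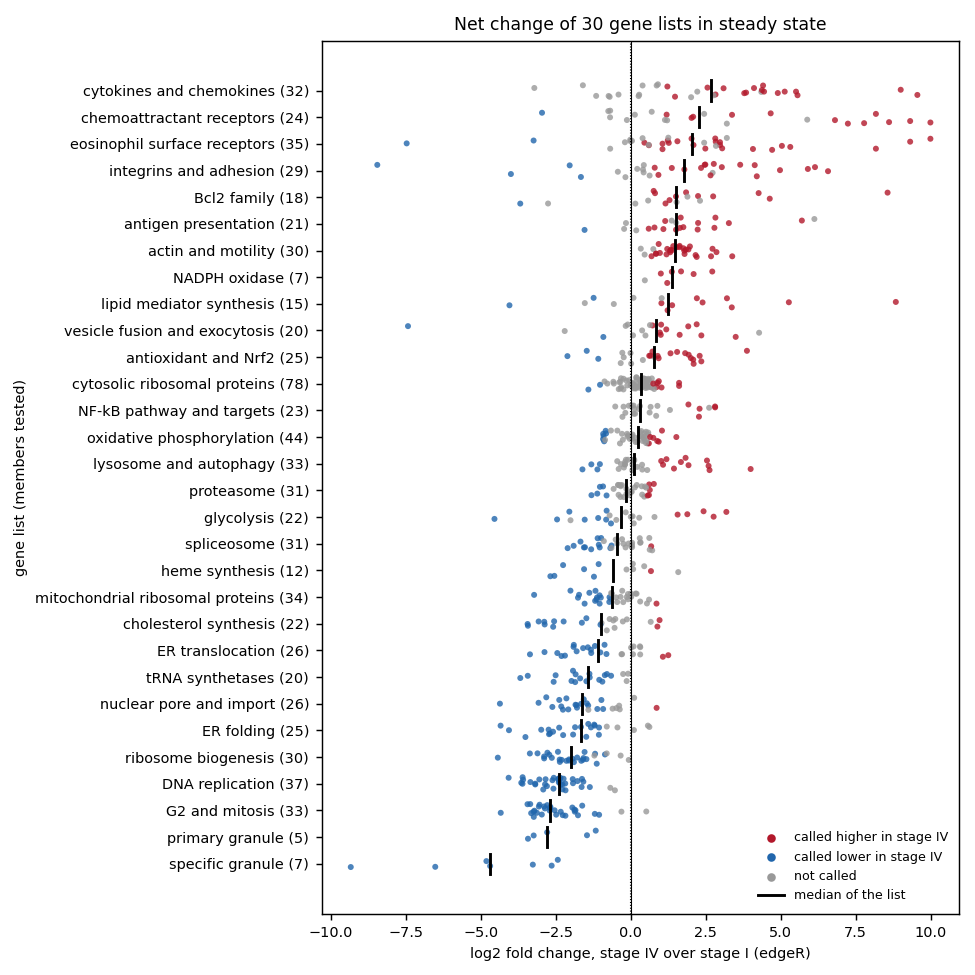
Log2 fold change of stage IV over stage I (x axis) for the tested members of 30 gene lists (y axis, number of members in brackets). Each point is a gene, red if called higher in stage IV, blue if called lower and grey if not called, and the black bar is the list median. Medians run from 2.66 for cytokines and chemokines to -4.69 for specific granule genes, and the dotted line at the median of all genes lies at -0.03.

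Genes for the proteins of the specific granule fell together. All 7 tested genes of the list were lower in stage IV, with a median log2 fold change of -4.69. Their summed level was 1129, 399 and 1247 CPM in the stage IV libraries and 37231, 37185 and 29424 CPM in the stage I libraries. Epx encodes eosinophil peroxidase (chr11:87864000-87875536 on GRCm38). Its level was 20.2, 18.6 and 26.5 CPM in the stage IV libraries, against 13883, 15953 and 12458 CPM in the stage I libraries. Every stage IV library lay more than 2 orders of magnitude below every stage I library (log2 fold change -9.34 ± 0.37 (SE), adjusted p = 4.3e-14). Prg2 encodes the major basic protein that forms the crystal core of the granule. Prg2 was at 492, 234 and 687 CPM in the stage IV libraries, against 15153, 13698 and 10992 CPM in the stage I libraries and fell less than Epx did in log2 terms (log2 fold change -4.82 ± 0.32 (SE), adjusted p = 1.8e-10). Prg3, its homolog, was at 46.7, 26.4 and 89.6 CPM in the stage IV libraries, against 5562, 5095 and 4283 CPM in the stage I libraries (log2 fold change -6.52 ± 0.43 (SE), adjusted p = 1.8e-10). The groups did not overlap for any of the 3 genes. Ear6, a ribonuclease of the eosinophil-associated family, fell as well (7.64, 4.53 and 15.8 CPM in stage IV and 285, 263 and 165 CPM in stage I, log2 fold change -4.69 ± 0.36 (SE), adjusted p = 1.8e-09). Ear1 (349 CPM in stage IV against 1888 CPM in stage I, means) and Ear2 (20.2 CPM in stage IV against 126 CPM in stage I) were lower with log2 fold changes of -2.44 and -2.64. Ear genes are near-identical copies, so reads may have been split between them. All 7 genes had the largest part of their net fall between stages III and IV.

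The enzymes of primary (azurophil) granules, which are made earlier in granulocyte development, were lower too. All 5 tested genes were called lower, with a median of -2.79. Mpo, myeloperoxidase, was at 334, 385 and 106 CPM in the stage IV libraries, against 2939, 3389 and 2578 CPM in the stage I libraries (log2 fold change -3.43 ± 0.62 (SE), adjusted p = 0.00011). The protease Ctsg was at 35.1, 66.3 and 56 CPM in stage IV and 288, 444.98 and 357 CPM in stage I (log2 fold change -2.79 ± 0.53 (SE), adjusted p = 0.0002). Ms4a3, a membrane protein of granulocyte progenitors, was at 96.4, 37 and 86.5 CPM in stage IV and 718, 744 and 617 CPM in stage I (log2 fold change -3.24 ± 0.66 (SE), adjusted p = 0.0004). No stage IV library reached the lowest stage I library for these genes. The protease Prtn3 was the weakest call of the list (118 CPM in stage IV against 267 CPM in stage I, means, adjusted p = 0.031). It lost its call without the third libraries (-1.03 ± 0.44, adjusted p = 0.07), where 3 of the 5 genes passed. The count was also 3 without the second or the third stage IV library alone and without the first or second stage I library. Stage III lay below stage IV for each of Mpo, Ctsg, Ms4a3 and Prtn3, with means along stages I to IV of 2969, 3004, 159 and 275 CPM for Mpo and 267, 429, 29.8 and 118 CPM for Prtn3.

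Genes of stem and progenitor cells fell in 8 of 11 tested cases, and 1 was higher, with a median of -3.39. Myb, a transcription factor of blood progenitors, was at 21.7, 9.89 and 14.4 CPM in the stage IV libraries, against 653, 1022 and 760.4 CPM in the stage I libraries (log2 fold change -5.72 ± 0.32 (SE), adjusted p = 1.5e-11). Kit, the receptor for stem cell factor and the CD117 of the sort, was at 5.47, 10.3 and 10.1 CPM in stage IV and 136, 226 and 199 CPM in stage I (log2 fold change -4.44 ± 0.66 (SE), adjusted p = 1.1e-05). Cd34 was at 18.4, 26.1 and 8.91 CPM in stage IV and 185, 187 and 135 CPM in stage I (log2 fold change -3.24 ± 0.43 (SE), adjusted p = 2.6e-06). Adgrg1, an adhesion receptor of blood stem cells, averaged 0.715 ± 0.96 CPM in stage IV and 95.9 ± 25.1 CPM in stage I (SD, n = 3 each, log2 fold change -6.93). The stage IV libraries lay below all stage I libraries for each of these. Hoxa9 (0.783 CPM in stage IV against 20.4 CPM in stage I, means), Erg (0.738 CPM in stage IV against 13.2 CPM in stage I) and Sox4 (3.69 CPM in stage IV against 38.6 CPM in stage I), transcription factors of early progenitors, were lower with log2 fold changes of -4.65, -4.12 and -3.39. Meis1, a homeobox partner of Hoxa9, went the other way (83.1, 113 and 82.1 CPM in stage IV and 7.05, 12.3 and 9.74 CPM in stage I, log2 fold change 3.26 ± 0.46 (SE), adjusted p = 6.9e-06). Of 5 megakaryocyte markers 1 fell, and of 10 basophil and mast cell markers 5 fell. Itga2b, the platelet integrin chain, was at 36.2, 32.7 and 37.6 CPM in stage IV and 621, 622 and 461 CPM in stage I (log2 fold change -4.00 ± 0.30 (SE), adjusted p = 1.4e-09), while Pf4 and Gp1ba were not called, with means of 1.91 CPM in stage IV against 1.57 CPM in stage I for Pf4 and, for Gp1ba, 3.07 CPM in stage IV against 2.73 CPM in stage I. Cpa3, a mast cell carboxypeptidase, was at 44.5, 19.2 and 41 CPM in stage IV and 507, 849.6 and 574 CPM in stage I (log2 fold change -4.20 ± 0.42 (SE), adjusted p = 6.4e-08). Hdc, which makes histamine, was at 121, 89 and 123 CPM in stage IV and 1189, 1256 and 936 CPM in stage I (log2 fold change -3.34 ± 0.27 (SE), adjusted p = 3.0e-09). The proteases Mcpt8 and Prss34 of the same list were not called, with overlap and the second stage IV library at or near 0. Mcpt8 was at 134, 0.185 and 256 CPM in stage IV and 364, 396 and 253 CPM in stage I. Prss34 was at 211, 0 and 336 CPM in stage IV and 377, 325 and 170 CPM in stage I. The part of these marker genes in the other results was not tested.

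Genes of cell division fell almost throughout. Of 37 genes of DNA replication, 35 were lower and none higher, with a median of -2.40. Of 33 genes of G2 and mitosis, 31 were lower and none higher, with a median of -2.69. Mcm3, a subunit of the replicative helicase (chr1:20802968-20820312), was at 43.1, 38.3 and 29.8 CPM in the stage IV libraries, against 350.1, 367 and 419 CPM in the stage I libraries (log2 fold change -3.35 ± 0.25 (SE), adjusted p = 8.6e-10). The helicase subunits Mcm6 and Mcm7 had log2 fold changes of -3.19 and -2.84. Rrm1, the large subunit of ribonucleotide reductase, was at 56.5, 38.3 and 31.7 CPM in stage IV and 234, 220.2 and 298 CPM in stage I (log2 fold change -2.57 ± 0.26 (SE), adjusted p = 8.3e-08). Each stage IV library lay below each stage I library for these replication genes. Among mitotic genes, Top2a, the topoisomerase that untangles chromosomes, was at 52.2, 24.1 and 35.8 CPM in stage IV and 239.6, 243 and 252 CPM in stage I (log2 fold change -2.71 ± 0.29 (SE), adjusted p = 1.9e-07). Plk1, a kinase of mitotic entry, was at 12.4, 5.45 and 2.88 CPM in stage IV and 87.6, 48.7 and 49.2 CPM in stage I (log2 fold change -3.14 ± 0.40 (SE), adjusted p = 1.8e-06), and the spindle motor Kif11 had a log2 fold change of -3.45. Cdc20, the activator of the anaphase-promoting complex, averaged 23.5 CPM in stage IV against 152 CPM in stage I (log2 fold change -2.69). Mki67, the proliferation antigen Ki-67, was less reduced (55.3, 80.6 and 117 CPM in stage IV and 172, 136 and 219 CPM in stage I, log2 fold change -1.06 ± 0.28 (SE), adjusted p = 0.004), and its highest stage IV value, in the third library, lay closest to the lowest stage I value. The genes of the 2 lists not called were Pcna (141 CPM in stage IV against 227 CPM in stage I), Gins4 (44 CPM in stage IV against 63.8 CPM in stage I), Cenpa (120 CPM in stage IV against 149 CPM in stage I) and Cks2 (447.9 CPM in stage IV against 313 CPM in stage I).

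Promoters of 3 of these genes are shown because the list shares short promoter words that were searched on both strands. The windows hold 250 bases before and 50 after the annotated start in RefSeq on GRCm38.p6, on the strand of the gene. Capitals mark the CHR word TTTGAA and the word CCAAT in the first 2 windows, and in the third the E2F words TTTGGCGC, TTTGCCGC, TTTCGCGC or TTTCCCGC. CHR elements are bound by the MuvB complexes of the cell cycle, CCAAT by NF-Y and the third set by E2F factors. Mki67 lies at chr7:135716330-135716629, Cdc20 at chr4:118437294-118437593 and Mcm3 at chr1:20820263-20820562, all on the minus strand.
Mki67: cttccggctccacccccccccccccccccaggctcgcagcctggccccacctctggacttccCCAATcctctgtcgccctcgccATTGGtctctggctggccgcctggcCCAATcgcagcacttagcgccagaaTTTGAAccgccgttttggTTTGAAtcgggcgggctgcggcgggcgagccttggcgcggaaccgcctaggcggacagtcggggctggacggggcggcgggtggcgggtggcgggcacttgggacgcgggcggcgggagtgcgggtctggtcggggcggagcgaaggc
Cdc20: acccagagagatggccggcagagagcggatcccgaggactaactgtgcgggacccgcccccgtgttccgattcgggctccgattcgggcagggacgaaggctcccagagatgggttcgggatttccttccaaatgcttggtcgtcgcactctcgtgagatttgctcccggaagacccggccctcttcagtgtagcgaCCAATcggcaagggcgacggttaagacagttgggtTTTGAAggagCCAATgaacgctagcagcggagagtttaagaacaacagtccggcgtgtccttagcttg
Mcm3: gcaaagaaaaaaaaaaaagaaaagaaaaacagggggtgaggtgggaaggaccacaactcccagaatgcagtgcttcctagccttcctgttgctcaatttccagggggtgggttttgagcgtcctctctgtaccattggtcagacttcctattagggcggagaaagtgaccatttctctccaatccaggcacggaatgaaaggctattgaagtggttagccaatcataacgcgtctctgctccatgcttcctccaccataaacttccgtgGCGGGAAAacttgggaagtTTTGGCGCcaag
The word TTTGAA was found in 22 of the 28 G2 and mitosis genes with a window (78.6%), against 14.6% of all tested genes with a window and 20.2% of all 27025 genes with one. CCAAT was found in 23 of the 28 (82.1%), against 43.3% and 41.1%. One of the E2F words was found in 13 of 30 DNA replication genes (43.3%), against 4.67% and 2.6%. Such matches describe the letters of the windows and are neither sites nor causes.

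Genes that set the entry into the cycle went both ways, 9 of 24 higher and 9 lower. The kinase Cdk4 was at 57.8, 74.9 and 37.2 CPM in stage IV and 341, 335 and 246 CPM in stage I (log2 fold change -2.44 ± 0.30 (SE), adjusted p = 9.5e-07). Cdk6 (54.8 CPM in stage IV against 262 CPM in stage I, means) and the cyclins Ccnd2 (16.1 CPM in stage IV against 76.8 CPM in stage I), Ccne1 (7.7 CPM in stage IV against 28.2 CPM in stage I) and Ccne2 (6.85 CPM in stage IV against 25.3 CPM in stage I) were also lower. The repressor E2f8 was at 9.29, 7.39 and 5.76 CPM in stage IV and 49.3, 51.2 and 46.9 CPM in stage I (log2 fold change -2.71 ± 0.32 (SE), adjusted p = 5.0e-07). Inhibitors of cyclin-dependent kinases were higher instead. Cdkn1b, p27, was at 135, 124 and 124.5 CPM in the stage IV libraries, against 19.6, 21 and 16.1 CPM in the stage I libraries (log2 fold change 2.76 ± 0.38 (SE), adjusted p = 4.4e-06). Cdkn2d, p19, was at 339, 253 and 304 CPM in stage IV and 83.6, 48.6 and 76.5 CPM in stage I (log2 fold change 2.10 ± 0.26 (SE), adjusted p = 1.3e-06), and Cdkn1a, p21, averaged 141 CPM in stage IV against 40.3 CPM in stage I (log2 fold change 1.81). The antiproliferative genes Btg1 and Btg2 were higher, with log2 fold changes of 2.21 and 1.96.

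The RNAs of Myc, a factor that drives growth in dividing cells, and of genes that build ribosomes fell. Myc was at 12.5, 23.6 and 6.31 CPM in the stage IV libraries, against 276, 274 and 161 CPM in the stage I libraries (chr15:61985391-61990374, log2 fold change -4.06 ± 0.81 (SE), adjusted p = 0.00033). Its dimer partner Max was at 219.6, 241 and 309 CPM in stage IV and 31.7, 18.2 and 13.8 CPM in stage I (log2 fold change 3.60 ± 0.47 (SE), adjusted p = 2.1e-06), and the Max-binding repressor Mxd1 was at 373, 501 and 629 CPM in stage IV and 55.3, 70.8 and 204 CPM in stage I (log2 fold change 2.18 ± 0.43 (SE), adjusted p = 0.00031). All 3 stage IV libraries lay below stage I for Myc and above it for Max and Mxd1. In the ribosome biogenesis list, 26 of 30 genes were lower and none higher, with a median of -2.01. Nop56, a core protein of the box C/D particle, was at 67.2, 55.3 and 61.9 CPM in stage IV and 358, 357 and 431 CPM in stage I (log2 fold change -2.64 ± 0.31 (SE), adjusted p = 5.7e-07). Wdr12, of the PeBoW complex, was at 13.7, 15.2 and 22.6 CPM in stage IV and 162, 190.4 and 178 CPM in stage I (log2 fold change -3.37 ± 0.31 (SE), adjusted p = 1.6e-08). Polr1b, the second largest subunit of RNA polymerase I, averaged 1.87 CPM in stage IV against 41.7 CPM in stage I (log2 fold change -4.44). The E-box word CACGTG, a motif of Myc and Max dimers, was found in 6 of 25 of these genes with a window (24%), against 11.8% of all tested genes. It was also found in 30.8% of lysosome and autophagy genes and 22.2% of immediate early genes, lists with more members higher than lower with TMM. Among lists with more members lower, the share was 37.5% for heme genes, 35.7% for nutrient transporters and 33.3% for tRNA synthetases. It was 10% for folding genes and 10.7% for G2 and mitosis genes. Of lost genes 21.3% held the word, and of gained genes 14.3%. In cytosolic ribosomal protein genes the share was 10.5%. A part of Myc in these falls was not tested.

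Among 78 genes for cytosolic ribosomal proteins, 7 rose, 2 fell and 5 were kept (median 0.34). This direction depended on the third libraries and the scaling. Without the third libraries 1 rose and 12 fell (median -0.25), and with library totals 2 rose and 9 fell (median -0.04). The summed level was 20573, 19216 and 39803 CPM in the stage IV libraries and 25538, 22539 and 17228 CPM in the stage I libraries, and the third stage IV library was the high one. Fau, the ubiquitin-like fusion of a small subunit protein, was at 464, 402 and 926 CPM in stage IV and 246, 189 and 153 CPM in stage I (log2 fold change 1.61 ± 0.31 (SE), adjusted p = 0.00024). Rpl3 was lower (176, 194 and 374 CPM in stage IV and 508, 535 and 473 CPM in stage I, log2 fold change -1.03 ± 0.28 (SE), adjusted p = 0.0051). Many of these genes have processed copies in the genome, which can take reads from them.

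RNAs for further steps of making and folding proteins fell. Of 20 aminoacyl-tRNA synthetases, 17 were lower and none higher (median -1.43). Iars was at 4.95, 10.2 and 7.27 CPM in stage IV and 95.1, 118 and 75.6 CPM in stage I (log2 fold change -3.69 ± 0.37 (SE), adjusted p = 5.5e-08), and Vars had a log2 fold change of -2.58. Of 25 genes of protein folding in the endoplasmic reticulum, 20 were lower and none higher (median -1.66). Calr, the chaperone calreticulin (chr8:84841850-84846934), was at 176, 158 and 78.2 CPM in the stage IV libraries, against 3003, 2829.5 and 2548 CPM in the stage I libraries (log2 fold change -4.34 ± 0.41 (SE), adjusted p = 2.3e-08). No overlap was seen, and the lowest stage IV value was in the third library. Pdia3, a disulfide isomerase, was at 273, 173 and 142 CPM in stage IV and 1243, 1210.3 and 1360.4 CPM in stage I (log2 fold change -2.70 ± 0.24 (SE), adjusted p = 1.4e-08). Canx, the membrane chaperone calnexin, was at 116, 122 and 132 CPM in stage IV and 548, 676 and 547 CPM in stage I (log2 fold change -2.26 ± 0.20 (SE), adjusted p = 8.3e-09). The chaperones Hspa5 (1667 CPM in stage IV against 4462 CPM in stage I, means) and Hsp90b1 (431 CPM in stage IV against 1637 CPM in stage I) were lower, with log2 fold changes of -1.42 and -1.93. Xbp1, the transcription factor of the unfolded protein response, was lower (log2 fold change -1.86), while Atf4 (684 CPM in stage IV against 461 CPM in stage I), Ddit3 (164 CPM in stage IV against 152 CPM in stage I) and Dnajb9 (201 CPM in stage IV against 131 CPM in stage I) were not called. In the translocation and glycosylation list, 16 of 26 were lower and 2 higher. Rpn2, of the oligosaccharyltransferase, was at 91.5, 91.8 and 55.1 CPM in stage IV and 599, 644 and 515 CPM in stage I (log2 fold change -2.88 ± 0.29 (SE), adjusted p = 5.4e-08), and the translocon subunit Sec61a1 had a log2 fold change of -1.90.

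The promoter of Hspa5, the chaperone BiP, is shown because an element of the stress response recurs in the folding list. The window is chr2:34771840-34772139 on the plus strand of GRCm38.p6, from RefSeq. Capitals mark only the ERSE word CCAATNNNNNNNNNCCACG, to which ATF6 and NF-Y bind together and which contains a CCAAT word.
Hspa5: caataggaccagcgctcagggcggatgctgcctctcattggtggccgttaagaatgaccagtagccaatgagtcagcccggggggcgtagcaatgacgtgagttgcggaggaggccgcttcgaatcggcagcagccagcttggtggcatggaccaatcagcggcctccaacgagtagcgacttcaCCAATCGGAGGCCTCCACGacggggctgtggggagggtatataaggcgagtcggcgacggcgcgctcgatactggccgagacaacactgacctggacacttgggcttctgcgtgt
The ERSE word was found in 8 of 20 folding genes with a window (40%), against 0.179% of all tested genes and 0.137% of all genes. CCAAT alone was found in 19 of the 20 (95%).

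Sterol, heme and nutrient genes fell in part. Of 22 cholesterol genes, 11 were lower and 2 higher (median -0.996), or 7 and 1 in the 6 libraries alone. Fdps, farnesyl diphosphate synthase, was at 27, 17.1 and 40.6 CPM in stage IV and 257, 195 and 173 CPM in stage I (log2 fold change -2.89 ± 0.35 (SE), adjusted p = 8.2e-07), and Cyp51 was at 11.8, 6.56 and 40.5 CPM in stage IV and 98.8, 119 and 134 CPM in stage I (log2 fold change -2.59 ± 0.42 (SE), adjusted p = 3.1e-05). For Cyp51 the third stage IV library was the highest of its group. Hmgcs1, an early enzyme of the pathway, was not called (48.3 CPM in stage IV against 30.4 CPM in stage I, means). CCAAT was found in all 16 cholesterol genes with a window (100%). Of 12 heme genes, 6 were lower and 1 higher. Alas1, the first enzyme of heme synthesis, was at 241, 222 and 150.3 CPM in stage IV and 1479.9, 1149.7 and 1314 CPM in stage I (log2 fold change -2.68 ± 0.23 (SE), adjusted p = 7.7e-09). Eosinophil peroxidase, whose gene fell the most of the granule list, is a heme protein. Of 19 nutrient transporters, 12 were lower and 2 higher. Slc7a5, which carries large neutral amino acids, was at 5.12, 6.28 and 7.95 CPM in stage IV and 70.7, 89.2 and 69.6 CPM in stage I (log2 fold change -3.57 ± 0.51 (SE), adjusted p = 6.3e-06), and Slc11a1, a metal transporter of phagosomes, was at 89.9, 109 and 81.9 CPM in stage IV and 5.36, 2.39 and 1.8 CPM in stage I (log2 fold change 4.89 ± 0.74 (SE), adjusted p = 1.4e-05). Of 26 genes of the nuclear pore and import, 19 were lower and 1 higher (median -1.62), with Nup62 at 33.2, 25.5 and 23.5 CPM in stage IV and 176, 141 and 264 CPM in stage I (log2 fold change -2.82 ± 0.35 (SE), adjusted p = 1.2e-06). In the splicing list 12 of 31 were lower and 1 higher.

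Genes lost over the course were defined as called lower with a stage I mean of at least 10 CPM and a stage IV mean under 1 CPM. There were 112. Grb10, an adaptor of growth factor receptors (chr11:11930508-12038683), was at 0, 0 and 0 CPM in the stage IV libraries, against 46.3, 40.4 and 33.9 CPM in the stage I libraries. With no count in stage IV, it was at least 391-fold lower against a floor of 3 counts over the group (edgeR adjusted p = 2.0e-06). The same floor gave at least 284-fold for Dhtkd1, a mitochondrial dehydrogenase subunit (0, 0 and 0 CPM in stage IV and 35.1, 26.7 and 25.8 CPM in stage I). It gave at least 285-fold for Pus7, a pseudouridine synthase (0, 0 and 0 CPM in stage IV and 13.1, 36 and 34.4 CPM in stage I). Amigo2, an adhesion protein, and Hook1, a microtubule linker, had means of 0 CPM in stage IV against 25.7 CPM in stage I for Amigo2 and, for Hook1, 0 CPM in stage IV against 22.5 CPM in stage I. Cdh1, E-cadherin, was at 0.0868, 0 and 0.411 CPM in stage IV and 45, 65.9 and 48.5 CPM in stage I (log2 fold change -8.46 ± 0.94 (SE), adjusted p = 2.5e-07). Firre, a long noncoding RNA of the X chromosome, was at 0.174, 0 and 0 CPM in stage IV and 34.5, 34.3 and 57.9 CPM in stage I, and its ratio was 642-fold (95% counting interval 177 to 5308). Csgalnact1, which starts chondroitin sulfate chains, was at 0, 0.277 and 0 CPM in stage IV and 29.3, 42.2 and 25.2 CPM in stage I with a ratio of 316-fold (95% counting interval 108 to 1536). Muc6, a secreted mucin, was at 0, 1.02 and 0 CPM in stage IV and 62.5, 55.1 and 35.9 CPM in stage I (log2 fold change -7.10 ± 0.95 (SE), adjusted p = 2.8e-06). Il17rb, the receptor chain for IL-25, was just outside the definition (1.48, 1.02 and 0.686 CPM in stage IV and 204, 213 and 170.2 CPM in stage I, log2 fold change -7.48 ± 0.48 (SE), adjusted p = 1.2e-10). All stage IV values of these genes lay below all stage I values. Genes named by fold were chosen for such a lack of overlap, so it is no separate result for them.

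**Figure D2:**
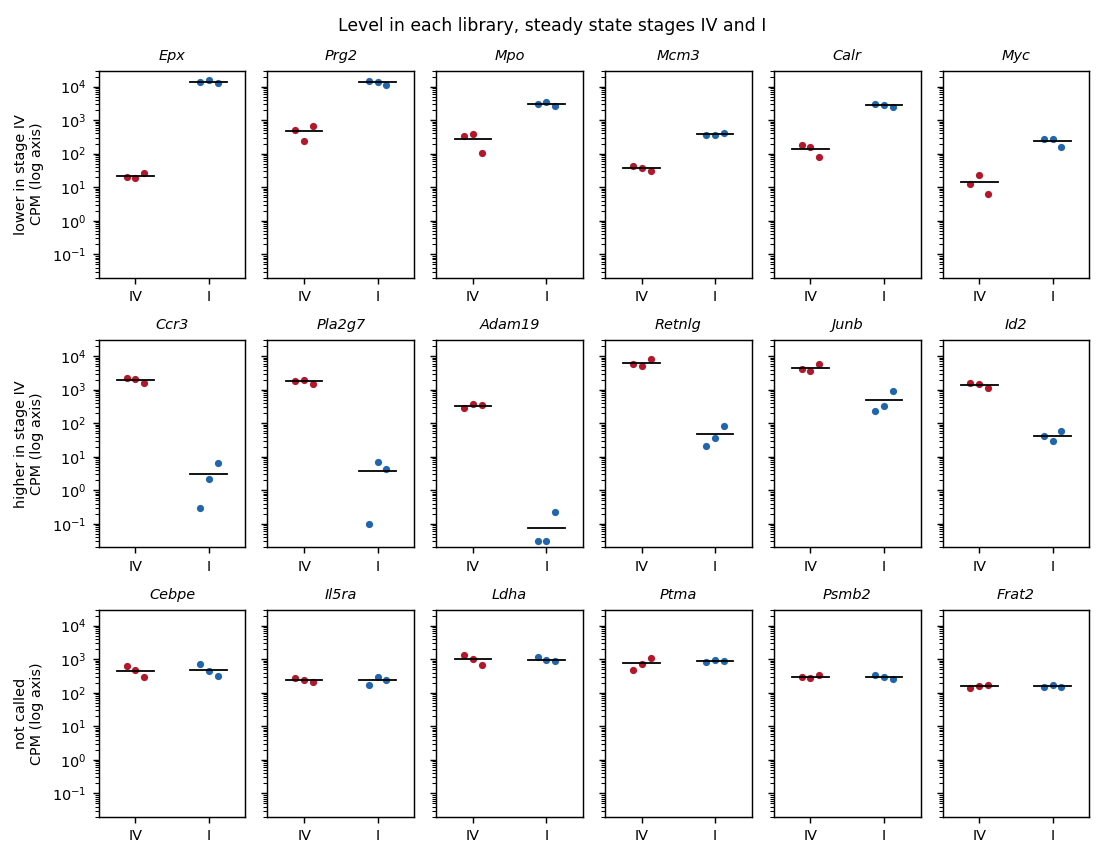
Level of 18 genes in each library (y axis, CPM on a log axis) in stage IV (left) and stage I (right) in steady state, with a line at the group mean. The top row fell in stage IV, as Epx with means of 21.8 CPM in stage IV against 14098 CPM in stage I, the middle row rose, and the 6 genes of the bottom row were not called. A library with no count, as for Adam19 in stage I, is drawn at 0.03 CPM.

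The mature stage carried more RNA for surface receptors. Of 35 receptors of eosinophils, 22 were higher and 2 lower (median 2.02), and the summed level was 16229, 13880.5 and 12352 CPM in the stage IV libraries and 3343, 4300.1 and 4571 CPM in the stage I libraries. Ccr3, the eotaxin receptor (chr9:124021972-124031689), was at 2243, 2156 and 1572 CPM in the stage IV libraries, against 0.298, 2.13 and 6.66 CPM in the stage I libraries. The stage I libraries were near 0 and all stage IV libraries above 1000 CPM (log2 fold change 9.32 ± 0.79 (SE), adjusted p = 6.3e-09). C3ar1, the receptor for complement fragment C3a (chr6:122847138-122856161), was at 165, 149 and 67.5 CPM in the stage IV libraries, against 0, 0.341 and 0 CPM in the stage I libraries (log2 fold change 9.99 ± 1.13 (SE), adjusted p = 3.4e-07). Cd9, a tetraspanin, was at 1282, 1026 and 1441 CPM in stage IV and 128, 159.8 and 189 CPM in stage I (log2 fold change 2.97 ± 0.25 (SE), adjusted p = 4.9e-09). Pirb, a paired inhibitory receptor, was at 959, 973 and 784 CPM in stage IV and 17, 26.6 and 38.9 CPM in stage I (log2 fold change 5.04 ± 0.38 (SE), adjusted p = 1.4e-09), but it has near-identical copies. Its protein was used in the sort, as were those of Adgre1, the F4/80 antigen (1285, 958 and 695 CPM in stage IV and 113, 173 and 131 CPM in stage I, log2 fold change 2.81 ± 0.28 (SE), adjusted p = 5.0e-08), and Cd200r3 (20.6, 14 and 20.4 CPM in stage IV and 0, 0.938 and 0.674 CPM in stage I, log2 fold change 5.01 ± 0.66 (SE), adjusted p = 2.6e-06). The 2 lower genes were Il17rb and Cd69, an early activation antigen (46.2 CPM in stage IV against 434 CPM in stage I, means, log2 fold change -3.24, with overlap).

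Il5ra and Siglecf were not called. Il5ra, the IL-5 receptor chain, was at 273, 245 and 216 CPM in the stage IV libraries, against 174, 301 and 241 CPM in the stage I libraries. The groups overlapped (log2 fold change 0.04 ± 0.31 (SE), adjusted p = 0.94), with a 95% interval of -0.61 to 0.69. Siglecf, the sialic acid-binding receptor used in the sort, was at 559, 529.8 and 302 CPM in stage IV and 307, 448.9 and 165 CPM in stage I (log2 fold change 0.59 ± 0.35 (SE), adjusted p = 0.18, 95% interval -0.14 to 1.33). Csf2rb, the chain shared by the receptors for IL-5, IL-3 and GM-CSF, and Csf2ra, the specific chain for GM-CSF, were higher, with means of 330 CPM in stage IV against 159 CPM in stage I for Csf2rb and, with overlap, 335 CPM in stage IV against 221 CPM in stage I for Csf2ra (log2 fold changes 1.06 and 0.60). Il1rl1, the IL-33 receptor, averaged 90.5 CPM in stage IV against 37.6 CPM in stage I (log2 fold change 1.26). Of 35 cytokine receptors as a whole, 14 were higher and 7 lower. Csf1r, the macrophage growth factor receptor, was at 356, 345 and 218 CPM in stage IV and 7.45, 5.71 and 11.5 CPM in stage I (log2 fold change 5.22 ± 0.37 (SE), adjusted p = 4.7e-10) beside the higher monocyte and macrophage markers named above, whose part in this was not tested. Among those markers C1qb was at 80.7, 37.6 and 3.84 CPM in stage IV and 1.79, 3.41 and 1.2 CPM in stage I. C1qc was at 71.8, 24.9 and 0 CPM in stage IV and 0, 3.15 and 0.524 CPM in stage I. The stage IV values of both genes spread widely, down to the level of stage I or near it. Cd68 averaged 60.2 CPM in stage IV against 26.1 CPM in stage I. Mrc1 was not called (3 CPM in stage IV against 1.65 CPM in stage I). Ms4a6c was not called either (90.6 CPM in stage IV against 151 CPM in stage I).

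The promoters of Ccr3 and C3ar1 are shown because both genes were near 0 in stage I and both windows hold the GATA word AGATAA, in capitals on either strand. GATA1 is the factor required for eosinophil development. The windows from RefSeq on GRCm38.p6 are chr9:124021721-124022020 on the plus strand and chr6:122856108-122856407 on the minus strand.
Ccr3: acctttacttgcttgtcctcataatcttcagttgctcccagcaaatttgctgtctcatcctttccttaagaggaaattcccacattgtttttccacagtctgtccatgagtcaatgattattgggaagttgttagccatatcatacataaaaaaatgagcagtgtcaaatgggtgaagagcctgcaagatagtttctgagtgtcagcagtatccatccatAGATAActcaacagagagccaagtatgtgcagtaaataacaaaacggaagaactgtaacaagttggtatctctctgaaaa
C3ar1: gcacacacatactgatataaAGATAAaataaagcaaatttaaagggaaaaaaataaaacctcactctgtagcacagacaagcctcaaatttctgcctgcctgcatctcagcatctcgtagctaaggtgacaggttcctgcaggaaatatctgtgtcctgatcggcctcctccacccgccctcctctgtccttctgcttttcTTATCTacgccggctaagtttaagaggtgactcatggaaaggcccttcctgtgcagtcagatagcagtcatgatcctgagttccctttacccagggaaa
The word was found in 9 of 28 eosinophil receptor genes with a window (32.1%) and in 11 of 56 gained genes (19.6%), against 8.28% of all tested genes and 12.7% of all genes with a window. Other lists varied as well, with 20% for neutrophil markers, 21.4% for nutrient transporters and 4.76% for lineage transcription factors. The share was above that of the receptors in some small lists. It was 40% for basophil and mast cell markers (4 of 10), 50% for erythroid markers (2 of 4) and 66.7% for NADPH oxidase genes (2 of 3). Of lost genes 12.4% held the word. These matches too are neither sites nor causes. The level of Gata1 itself was 337, 246 and 95 CPM in stage IV and 163, 176 and 119 CPM in stage I, with overlap between the stages (log2 fold change 0.57 ± 0.30 (SE), adjusted p = 0.13). Without the third libraries Gata1 was called higher (0.81 ± 0.22, adjusted p = 0.0066 in edgeR), and likewise without the third stage IV library alone (0.93 ± 0.24, adjusted p = 0.0036).

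Receptors that guide migration and genes of adhesion moved mostly upward. Of 24 chemoattractant receptors, 12 were higher and 1 lower (median 2.26), or 7 and 1 of the 16 left by a filter at a mean of 10 CPM. Ccr1, a receptor for CCL3 and CCL5, was at 255, 265 and 124 CPM in stage IV and 12.8, 22.8 and 26.4 CPM in stage I (log2 fold change 3.37 ± 0.33 (SE), adjusted p = 5.0e-08). Cxcr4, which holds leukocytes in the marrow, was also higher (132, 217 and 259 CPM in stage IV and 46.9, 54.1 and 43.1 CPM in stage I, log2 fold change 2.08 ± 0.25 (SE), adjusted p = 6.8e-07). The receptor for platelet-activating factor, Ptafr, averaged 103 CPM in stage IV against 4.02 CPM in stage I (log2 fold change 4.66). Cysltr1 (2.44 CPM in stage IV against 0 CPM in stage I) and Ptgdr2 (3.2 CPM in stage IV against 0 CPM in stage I), receptors for cysteinyl leukotrienes and prostaglandin D2, had no count in stage I and were low in stage IV. Gpr183, an oxysterol receptor, was lower (21.3 CPM in stage IV against 167 CPM in stage I, log2 fold change -2.96). Of 29 integrins and adhesion genes, 17 were higher and 4 lower (median 1.78). Itgal, the integrin chain of LFA-1, was at 360.2, 396 and 323 CPM in the stage IV libraries, against 30.2, 25.1 and 30.9 CPM in the stage I libraries (log2 fold change 3.65 ± 0.28 (SE), adjusted p = 1.6e-09). Itgb7, which pairs with the α4 chain for homing to gut, was at 1315, 964 and 491 CPM in stage IV and 28.5, 26.2 and 33.5 CPM in stage I (log2 fold change 4.97 ± 0.39 (SE), adjusted p = 2.2e-09), with the third stage IV library lowest. The integrin chains Itga4 and Itgam had means of 451.5 CPM in stage IV against 81.9 CPM in stage I for Itga4 and, for Itgam, 711 CPM in stage IV against 140.2 CPM in stage I (log2 fold changes 2.46 and 2.34). Selp, P-selectin, averaged 43.8 CPM in stage IV against 0.441 CPM in stage I (log2 fold change 6.58). The lower genes were Cdh1, Itga2b, Itga5 (7.48 CPM in stage IV against 30.9 CPM in stage I) and Itga6 (9.06 CPM in stage IV against 28.5 CPM in stage I). Itgb1, the CD29 of the sort, was a weak call (log2 fold change 0.80, adjusted p = 0.029) that was lost without the first library of either stage (0.66 without that of stage IV, 0.59 without that of stage I), without the second stage IV library (0.77) and with library totals (0.47).

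Of 32 cytokine and chemokine genes tested, 17 were higher and none lower (median 2.66). Without the third stage IV library alone, 14 were higher and 2 lower (median 1.53). Without the third libraries 17 were higher and 2 lower (median 3.24), and with library totals 17 and 2. Their summed level was 10272, 9701 and 14548 CPM in the stage IV libraries and 811, 984 and 1454 CPM in the stage I libraries. Ccl6, a CC chemokine of myeloid cells (chr11:83587882-83593087), was at 7121, 5809.8 and 8641 CPM in the stage IV libraries, against 158, 232 and 225 CPM in the stage I libraries (log2 fold change 5.13 ± 0.31 (SE), adjusted p = 6.0e-11). The neighbouring Ccl9 was at 427, 1055 and 594 CPM in stage IV and 15.8, 39.2 and 45.2 CPM in stage I (log2 fold change 4.37 ± 0.54 (SE), adjusted p = 1.1e-06). Il4, the type 2 cytokine, was at 498, 443.9 and 509.8 CPM in the stage IV libraries, against 37.3, 34.1 and 34.1 CPM in the stage I libraries (log2 fold change 3.78 ± 0.27 (SE), adjusted p = 6.5e-10). Il4 is also on the basophil list, whose other called members were lower apart from Itga2. Il1rn, the antagonist of IL-1, was at 205, 197 and 134 CPM in stage IV and 0, 3.32 and 8.16 CPM in stage I (log2 fold change 5.51 ± 0.74 (SE), adjusted p = 2.9e-06). Ccl3 (573 CPM in stage IV against 33.1 CPM in stage I, means) and Cxcl2 (589 CPM in stage IV against 27.6 CPM in stage I) were higher, with log2 fold changes of 4.11 and 4.41. Il13 (0.524 CPM in stage IV against 0 CPM in stage I) was near 0 in stage IV as well, and Il6 (11.1 CPM in stage IV against 5.87 CPM in stage I), Tnf (33 CPM in stage IV against 18 CPM in stage I) and Tgfb1 (132 CPM in stage IV against 111 CPM in stage I) were not called.

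Enzymes of lipid mediators were higher in 9 of 15 cases and lower in 2 (median 1.22). Pla2g7, which breaks down platelet-activating factor (chr17:43568098-43612201), was at 1871, 1940 and 1469 CPM in the stage IV libraries, against 0.0993, 6.99 and 4.27 CPM in the stage I libraries (log2 fold change 8.84 ± 0.81 (SE), adjusted p = 1.7e-08). Alox15, the 12/15-lipoxygenase of eosinophils, was at 3451, 2428 and 1298 CPM in the stage IV libraries, against 287, 233 and 258 CPM in the stage I libraries (log2 fold change 3.20 ± 0.30 (SE), adjusted p = 2.9e-08), with a wide spread in stage IV. Its mean along stages I to IV was 259, 2237, 8977 and 2392 CPM. Alox5, which starts leukotriene synthesis, was at 785, 864 and 415 CPM in stage IV and 193, 127 and 129.8 CPM in stage I (log2 fold change 2.20 ± 0.26 (SE), adjusted p = 6.6e-07). Its helper protein Alox5ap was at 1763, 1488 and 1889 CPM in stage IV and 351, 356 and 272 CPM in stage I (log2 fold change 2.39 ± 0.20 (SE), adjusted p = 4.3e-09). Ltc4s, which makes leukotriene C4, stayed low (1.02 CPM in stage IV against 3.02 CPM in stage I, not called), and Lta4h was lower (669 CPM in stage IV against 1583 CPM in stage I, log2 fold change -1.24).

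The oxidase and its counterparts moved up. Of 7 subunits and partners of the NADPH oxidase, 6 were higher and none lower (median 1.37). Ncf1, p47phox, was at 1552, 1568 and 1196 CPM in stage IV and 393, 319 and 299 CPM in stage I (log2 fold change 2.09 ± 0.24 (SE), adjusted p = 3.4e-07), and each stage IV library was above each stage I library. Of 25 antioxidant genes, 15 were higher and 3 lower, or 11 and 5 with library totals. Cat, catalase, was at 706, 454.6 and 331 CPM in stage IV and 90, 160 and 103 CPM in stage I (log2 fold change 2.08 ± 0.25 (SE), adjusted p = 6.5e-07), and Taldo1, transaldolase of the pentose phosphate path, had a log2 fold change of 1.93. Gss (5.83 CPM in stage IV against 25.6 CPM in stage I) and Gclc (16.9 CPM in stage IV against 46.7 CPM in stage I), which make glutathione, were lower. Actin and motility genes were higher in 27 of 30 cases and lower in none (median 1.47). Actb was at 6596, 6048 and 6923 CPM in stage IV and 1933, 1585 and 2296 CPM in stage I (log2 fold change 1.75 ± 0.25 (SE), adjusted p = 7.1e-06). Capg, which caps actin filaments, was at 721, 542 and 457.5 CPM in stage IV and 43.3, 51.3 and 70.5 CPM in stage I (log2 fold change 3.38 ± 0.30 (SE), adjusted p = 1.0e-08), and Wipf1, a partner of WASP, was at 226, 216 and 304 CPM in stage IV and 35.6, 32.1 and 35.3 CPM in stage I (log2 fold change 2.86 ± 0.20 (SE), adjusted p = 4.8e-10). The members not called were Msn (454.8 CPM in stage IV against 362 CPM in stage I), Flna (517 CPM in stage IV against 376 CPM in stage I) and Ezr (428 CPM in stage IV against 255 CPM in stage I).

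In the Bcl2 family, 11 of 18 were higher and 1 lower (median 1.52). With library totals 7 were higher (median 1.18), in the 12 steady state libraries alone 7, and without the third libraries 14. Mcl1, the survival protein of granulocytes, was at 1863, 1539 and 2326 CPM in the stage IV libraries, against 229, 367 and 615 CPM in the stage I libraries (log2 fold change 2.24 ± 0.29 (SE), adjusted p = 1.8e-06). Bbc3, the death-promoting PUMA, was at 96.8, 65.4 and 123 CPM in stage IV and 10, 9.12 and 23.3 CPM in stage I (log2 fold change 2.74 ± 0.42 (SE), adjusted p = 1.6e-05). Genes for and against death were thus both higher. Bcl2 itself was the lower one (3.65, 1.2 and 6.58 CPM in stage IV and 50.7, 51.8 and 42.4 CPM in stage I, log2 fold change -3.69 ± 0.48 (SE), adjusted p = 2.3e-06). Bcl2a1b was higher (61.7, 62.1 and 22.6 CPM in stage IV and 1.09, 2.73 and 2.02 CPM in stage I, log2 fold change 4.63 ± 0.62 (SE), adjusted p = 2.7e-06) but shares its sequence with close copies. Of 33 genes of lysosomes and autophagy, 11 were higher, 4 lower and 10 kept (median 0.11), and with library totals 8 were higher and 9 lower. Ctsd, cathepsin D, was at 3153, 2479.5 and 2057 CPM in stage IV and 445.5, 466 and 335 CPM in stage I (log2 fold change 2.62 ± 0.21 (SE), adjusted p = 3.0e-09). Map1lc3b, of the autophagosome, and Tfeb, a regulator of lysosome genes, had log2 fold changes of 2.54 and 2.59. Of 20 genes of vesicle fusion, 10 were higher and 2 lower. Snap23 was at 453.6, 319 and 282 CPM in stage IV and 105, 115 and 122 CPM in stage I (log2 fold change 1.63 ± 0.20 (SE), adjusted p = 1.2e-06) and Lyst, which governs granule size, 204, 321 and 256 CPM in stage IV and 17.7, 19.9 and 31.5 CPM in stage I (log2 fold change 3.50 ± 0.37 (SE), adjusted p = 1.6e-07). Rab27a, which docks granules, was not called (144 CPM in stage IV against 92.8 CPM in stage I).

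Proteases and defence genes were higher in part. Of 24 proteases and inhibitors, 11 were higher and 4 lower. Adam8, a metalloprotease of leukocytes, was at 1167, 1123 and 833 CPM in stage IV and 56.9, 47.5 and 53.2 CPM in stage I (log2 fold change 4.31 ± 0.32 (SE), adjusted p = 1.3e-09), and Slpi, an inhibitor of neutrophil elastase, was at 1316, 995 and 1454 CPM in stage IV and 91.1, 79.8 and 139 CPM in stage I (log2 fold change 3.60 ± 0.27 (SE), adjusted p = 1.4e-09). Mmp9, on both this and the neutrophil list, was at 1284, 1289 and 991 CPM in stage IV and 6.95, 1.53 and 14.7 CPM in stage I (log2 fold change 7.26 ± 1.19 (SE), adjusted p = 3.6e-05). Retnlg, a resistin-like protein of granulocytes, was at 5751, 5091 and 8106 CPM in the stage IV libraries, against 21.3, 35.1 and 82.1 CPM in the stage I libraries (log2 fold change 7.09 ± 0.61 (SE), adjusted p = 7.4e-09), and Padi4, which citrullinates histones, was at 942, 672 and 462 CPM in stage IV and 76.2, 59.9 and 70.8 CPM in stage I (log2 fold change 3.33 ± 0.30 (SE), adjusted p = 1.3e-08). These 3 were the called neutrophil markers. The granule genes Ltf (1121 CPM in stage IV against 1190.4 CPM in stage I, means), Camp (1894 CPM in stage IV against 909 CPM in stage I), Ngp (3994 CPM in stage IV against 2414 CPM in stage I) and S100a8 (1650 CPM in stage IV against 782 CPM in stage I) were not called in this fit, and the part of neutrophil RNA in the results was not tested. Of 29 interferon-stimulated genes, 13 were higher and 2 lower, or 8 and 3 with library totals, with Irf7 at 89.7, 87.2 and 54.4 CPM in stage IV and 6.16, 5.28 and 10.6 CPM in stage I (log2 fold change 3.38 ± 0.42 (SE), adjusted p = 1.3e-06). Of 21 genes of antigen presentation, 14 were higher and 1 lower (median 1.51). B2m, the light chain of class I molecules, was at 2373, 1992 and 2392 CPM in stage IV and 718, 784 and 671 CPM in stage I (log2 fold change 1.64 ± 0.17 (SE), adjusted p = 1.4e-07), and Cd86, a costimulator, averaged 25.6 CPM in stage IV against 0.476 CPM in stage I (log2 fold change 5.70). Of the class II genes, H2-Aa was higher with overlap (27.7 CPM in stage IV against 5.89 CPM in stage I) and Cd74 was not called (86.2 CPM in stage IV against 33.4 CPM in stage I). Of 24 pattern receptor genes, 10 were higher and 1 lower, or 6 and 1 without the first stage I library, with Myd88 at 264, 243 and 138 CPM in stage IV and 51, 63.4 and 68.5 CPM in stage I (log2 fold change 1.82 ± 0.22 (SE), adjusted p = 8.5e-07).

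Immediate early genes were in part higher in stage IV, with a wide spread between libraries. Of 22 tested, 9 were higher and 1 lower (median 1.57), and 11 were higher and 2 lower without the third libraries. Junb, a subunit of AP-1 (chr8:84974484-84978718), was at 4008, 3669 and 5887 CPM in the stage IV libraries, against 227, 337 and 904 CPM in the stage I libraries. The third library was highest in both stages, and the groups did not overlap (log2 fold change 3.21 ± 0.48 (SE), adjusted p = 1.3e-05). Fosl2 was at 109, 147 and 243 CPM in stage IV and 1.49, 7.41 and 11.4 CPM in stage I (log2 fold change 4.61 ± 0.58 (SE), adjusted p = 1.4e-06). Jun (2442 CPM in stage IV against 2868 CPM in stage I, means), Fos (2458 CPM in stage IV against 1973 CPM in stage I) and Egr1 (305 CPM in stage IV against 370.2 CPM in stage I) were not called. Ier3 was the lower gene (33.9, 18.5 and 61 CPM in stage IV and 205, 449.5 and 644 CPM in stage I, log2 fold change -3.52 ± 0.39 (SE), adjusted p = 2.3e-07). Of 23 genes of the NF-kB pathway 5 were higher, none lower and 6 kept. Without the third libraries 9 were higher and none kept, and without the third stage I library alone 8 and none. The summed level of this list was 2550.4, 3008 and 8792 CPM in the stage IV libraries and 1218, 2018 and 6798 CPM in the stage I libraries.

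Transcription factors of the lineage divided into 15 higher and 5 lower of 31. Id2, an inhibitor of E proteins, was at 1565, 1451 and 1121 CPM in the stage IV libraries, against 40.9, 28.7 and 58.1 CPM in the stage I libraries (log2 fold change 5.02 ± 0.32 (SE), adjusted p = 1.2e-10). Cebpb was at 2607, 3296 and 2791 CPM in stage IV and 278, 226 and 328 CPM in stage I (log2 fold change 3.39 ± 0.34 (SE), adjusted p = 5.9e-08) and Spi1, PU.1, 989, 859.6 and 568 CPM in stage IV and 356, 296 and 278 CPM in stage I (log2 fold change 1.38 ± 0.20 (SE), adjusted p = 8.0e-06). Their stage IV libraries were all above stage I. Gfi1, a repressor of granulocyte progenitors, was lower (9.11, 8.68 and 4.94 CPM in stage IV and 87.2, 72.3 and 79.3 CPM in stage I, log2 fold change -3.38 ± 0.37 (SE), adjusted p = 2.5e-07), and its paralog Gfi1b was higher (177, 338 and 101 CPM in stage IV and 30.6, 20.2 and 25.1 CPM in stage I, log2 fold change 3.02 ± 0.39 (SE), adjusted p = 1.6e-06). Gata2 was lower (9.98, 6.84 and 9.6 CPM in stage IV and 72.8, 65.2 and 53.8 CPM in stage I, log2 fold change -2.86 ± 0.37 (SE), adjusted p = 2.0e-06). Batf3 averaged 41.9 CPM in stage IV against 0.0499 CPM in stage I, and with 2 counts in stage I its ratio was 705-fold (95% counting interval 195 to 5831). Cebpa was low in both stages and not called (7.29, 2.96 and 4.39 CPM in stage IV and 18.2, 12.1 and 5.02 CPM in stage I, log2 fold change -1.26 ± 0.64 (SE), adjusted p = 0.11). With library totals Cebpa was called lower (-1.63 ± 0.66, adjusted p = 0.047 in edgeR).

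Genes gained over the course, called higher with a stage I mean under 1 CPM and a stage IV mean of at least 10 CPM, numbered 80. Adamdec1, a metalloprotease of macrophages and dendritic cells (chr14:68563380-68582095), was at 148, 216 and 83.7 CPM in the stage IV libraries, against 0, 0 and 0 CPM in the stage I libraries. Against the floor of 3 counts over the group it was at least 1843-fold higher (edgeR adjusted p = 0.00072). The same floor gave at least 1296-fold for Sema7a, a membrane semaphorin (74.2, 146 and 115 CPM in stage IV and 0, 0 and 0 CPM in stage I), and at least 958-fold for Tgm2, a transglutaminase (54.4, 97.7 and 101 CPM in stage IV and 0, 0 and 0 CPM in stage I). Asb2, a subunit of ubiquitin ligases, averaged 75.7 CPM in stage IV against 0 CPM in stage I. Adam19, another metalloprotease (chr11:46055992-46147343), was at 287, 364 and 349 CPM in the stage IV libraries, against 0, 0 and 0.225 CPM in the stage I libraries. With 3 counts in stage I, its ratio was 3872-fold (95% counting interval 1325 to 18781) and its adjusted p 8.8e-12 in edgeR. Fgfr1, a growth factor receptor, was at 56, 165 and 85.9 CPM in stage IV and 0, 0 and 0.15 CPM in stage I and had a ratio of 1812-fold (95% counting interval 501 to 14966). Retnla, a resistin-like protein induced by type 2 cytokines, was at 61.7, 152 and 59.2 CPM in stage IV and 0.0993, 0 and 0.0749 CPM in stage I with a ratio of 1652-fold (95% counting interval 456.8 to 13644). Basp1, a membrane-associated protein, was at 509, 616 and 588 CPM in stage IV and 0.0993, 0.682 and 1.42 CPM in stage I (log2 fold change 9.51 ± 0.74 (SE), adjusted p = 2.1e-09). Means were 79.1 CPM in stage IV against 0.025 CPM in stage I for Gbp9, 33.3 CPM in stage IV against 0.0284 CPM in stage I for Fhl2, both with 1 count in stage I, and for Pbld1 368 CPM in stage IV against 0.32 CPM in stage I.

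Genes called kept gave the other side of the comparison. A 2-fold change in either direction was rejected for 616 genes, 4.83% of those tested. This count was sensitive to the fit, at 279 without the third libraries, 0 in a fit of the 6 libraries alone and 1242 with DESeq2. Without the first stage I library it was 0, and without the second 1. Over all genes, the 95% interval lay within 2-fold either way for 1784 (14%). Cebpe, the factor that directs granulocytes to make their granules (chr14:54710360-54712174), was at 632, 463 and 287 CPM in the stage IV libraries, against 699.6, 458.02 and 322 CPM in the stage I libraries. The groups overlapped, and the log2 fold change was -0.10 with a 95% interval of -0.69 to 0.49. Ptma, prothymosin, was at 484, 735 and 1085 CPM in stage IV and 846, 918 and 879.8 CPM in stage I (-0.20, -0.66 to 0.26). Ldha, lactate dehydrogenase, was at 1351, 1017 and 695 CPM in stage IV and 1127, 955 and 859.6 CPM in stage I (0.06, -0.44 to 0.56). Psmb2, a subunit of the proteasome core, was at 287, 275 and 337 CPM in stage IV and 333, 292 and 256 CPM in stage I (0.03, -0.43 to 0.49). Uqcrb, of respiratory complex III, was at 201, 187 and 253 CPM in stage IV and 202, 199 and 174 CPM in stage I (0.16, -0.32 to 0.64). The groups overlapped for each of these genes. Ptma was called lower without the third stage IV library (-0.53 ± 0.21, adjusted p = 0.048) and, like Hmgb2 and Ppia, with library totals (-0.55, -0.53 and -0.64), all by less than 2-fold. Slc25a5, the ADP/ATP carrier, Hmgb2, a chromatin protein, and Ppia, cyclophilin A, had intervals of -0.71 to 0.36, -0.60 to 0.27 and -0.75 to 0.19. The intervals were -0.36 to 0.56 for Bcap31, -0.28 to 0.53 for Tecr, -0.53 to 0.50 for Cnbp and -0.46 to 0.39 for Rsrp1. Several of these genes have processed copies in the genome, which can share their reads.

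Kept genes, 4.83% of all genes tested, made up 12 of 44 oxidative phosphorylation genes (27.3%), beside 7 higher and 6 lower (median 0.25). In the proteasome list 10 of 31 were kept (32.3%), 5 higher and 5 lower (median -0.15). Sdhb (355, 301 and 436.4 CPM in stage IV and 141, 129.7 and 111 CPM in stage I, log2 fold change 1.52 ± 0.25 (SE), adjusted p = 4.0e-05) and Atp5a1 (328, 262 and 300.1 CPM in stage IV and 562, 553 and 535 CPM in stage I, log2 fold change -0.89 ± 0.17 (SE), adjusted p = 0.00018) changed in opposite directions within the first list. Psmd2, of the proteasome cap, was lower (129.8, 102 and 83.2 CPM in stage IV and 276, 255 and 254 CPM in stage I, log2 fold change -1.31 ± 0.22 (SE), adjusted p = 4.9e-05). Without the third libraries 2 oxidative phosphorylation genes were higher and 8 lower, and none and 5 of the proteasome list. With library totals the counts were 2 and 12, and none and 14. The kept counts varied as much. Without the third libraries 7 oxidative phosphorylation and 6 proteasome genes were kept, with library totals 23 and 12, and in the 6 or the 12 libraries alone none of either. Without the second stage I library none of either was kept, and without the first stage I library no gene of any list was kept. In glycolysis 5 of 22 genes were higher and 8 lower, but 6 and 5 without the third stage IV library and 5 and 5 without the first stage I library. Examples were Gapdh at 765 CPM in stage IV against 766 CPM in stage I and the glucose transporter Slc2a3 at 552 CPM in stage IV against 60.6 CPM in stage I. Mitochondrial ribosomal proteins were lower in 15 of 34 cases and higher in 1.

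**Figure D3:**
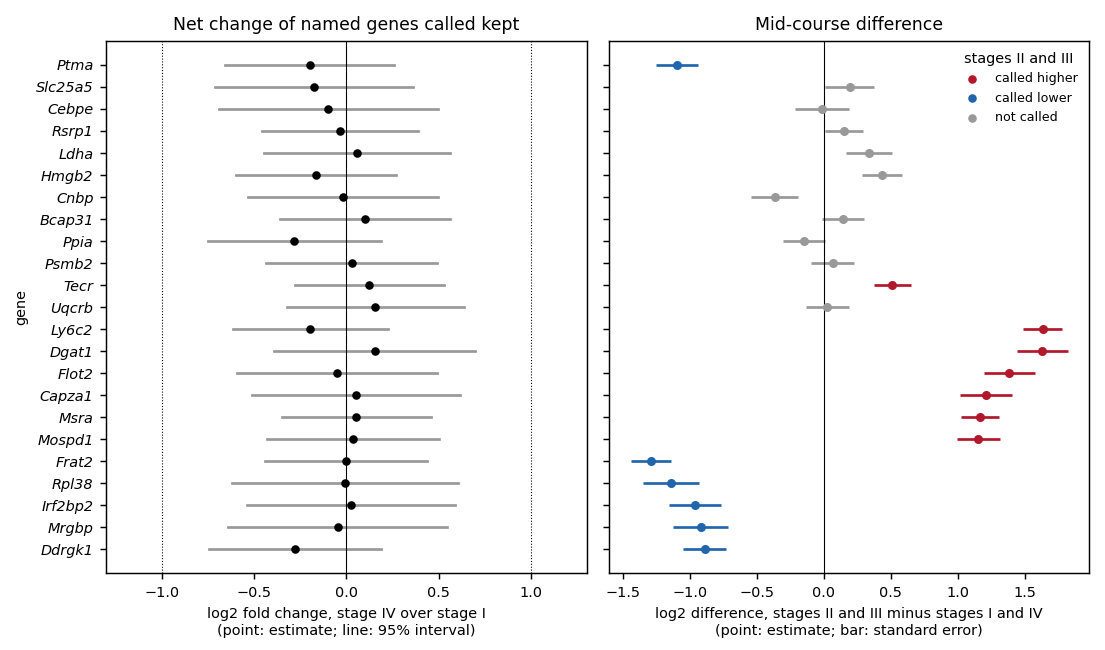
Left, log2 fold change of stage IV over stage I (x axis) with its 95% interval for 23 named genes called kept (y axis), and dotted lines at 2-fold either way. Right, log2 difference of the mean of stages II and III minus the mean of stages I and IV for the same genes, with the standard error as bar and colour for the call. All intervals on the left lie within the dotted lines, while on the right Ly6c2 reaches 1.63 and Frat2 -1.29.

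Part of the genes had another level in the middle of the course than the mean of its ends, whether or not those ends were alike. The mean of stages II and III differed from the mean of stages IV and I in 1618 genes (12.7% of those tested), with 980 higher and 638 lower in the middle. Of the 616 kept genes, the only ones called alike at both ends, 96 were higher and 21 lower in the middle. Ly6c2, a surface antigen of myeloid cells with a near-identical copy, averaged 441.5, 1017, 1607 and 386 CPM along stages I to IV (log2 difference 1.63 ± 0.15 (SE), adjusted p = 2.1e-07). Dgat1, which makes triglycerides, averaged 74.5, 169, 349 and 82.9 CPM (1.63 ± 0.19 (SE), adjusted p = 6.1e-06). Msra, which repairs oxidized methionine, averaged 107, 177, 336 and 111 CPM (1.16 ± 0.14 (SE), adjusted p = 7.7e-06). The highest mean of these genes was in stage III, and those of stages IV and I lay close together. Frat2, of the Wnt pathway, did the reverse with 155, 58.5, 68.7 and 155 CPM (-1.29 ± 0.15 (SE), adjusted p = 7.0e-06), and so did Ptma with 881, 739.8, 199.6 and 768 CPM (-1.10 ± 0.16 (SE), adjusted p = 8.2e-05). Cytosolic ribosomal proteins were lower in the middle in 37 of 78 cases. By this contrast all 7 specific granule genes and 16 of 33 mitotic genes were called higher in the middle, beside 980 of 12743 genes tested. Both lists fell from stage I to stage IV, so such a call need not be a peak. Median log2 levels in stages II and III minus stage I were 0.14 and 0.33 for the granule genes. For the mitotic genes they were 0.94 and -1.84.

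For most called genes, the largest step in the direction of the net change lay between stages II and III. For each called gene, the step with the largest part of the net log2 difference was II to III in 59.4% of the higher and 67.3% of the lower genes. The step I to II led in 15.8% and 17.6%, and III to IV in 24.8% and 15.1%. Only 29.2% of the higher and 38.5% of the lower genes moved in the net direction at every step. Of gained and lost genes, 52.5% and 53.6% did. The others turned back at a step, so their largest step can exceed the net change. Of the lost genes, 81 of 112 (72.3%) had their largest fall from II to III, and of the gained genes 40 of 80 (50%) their largest rise. Median log2 levels of DNA replication genes in stages II, III and IV minus stage I were 0.13, -2.44 and -2.38, and those of ribosome biogenesis -0.62, -2.45 and -1.98. The medians of mitotic genes were 0.94, -1.84 and -2.66, above stage I in stage II. Those of specific granule genes were 0.14, 0.33 and -4.60, near or above stage I up to stage III. Those of eosinophil surface receptors were 0.54, 1.36 and 2.00. These shares and medians describe the order of the stages and were not tested.

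**Figure D4:**
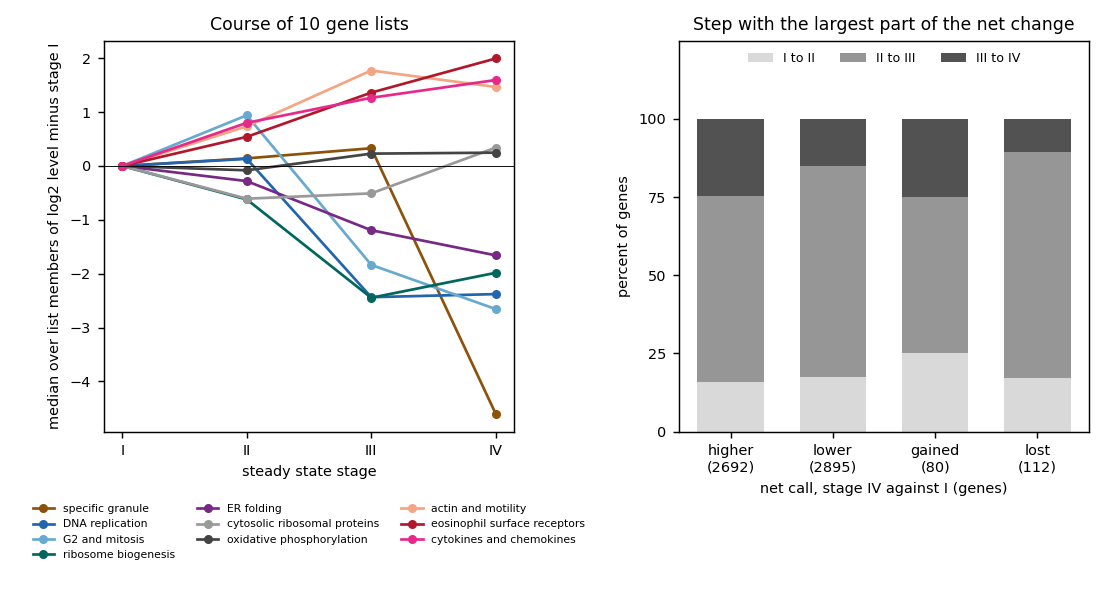
Left, median over the members of 10 gene lists of the log2 level minus that of stage I (y axis) in steady state stages I to IV (x axis). Right, percent of genes (y axis) with the largest part of their net change in each step, for genes called higher, lower, gained and lost (x axis, number of genes). Specific granule genes end at -4.60 after 0.33 in stage III, and the step II to III holds 72.3% of the lost genes.

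The net change in steady state was set against the same 2 stages under IL-33, to find where the steady state course differs. The difference of the 2 net changes passed the test in 416 genes (3.26% of those tested), with 153 above and 263 below IL-33, and 2183 genes had an unadjusted p under 0.05. The fall of the granule genes was larger in steady state. Epx had means of 5801 CPM in stage IV against 16577 CPM in stage I under IL-33, where its net log2 change was -1.51 (steady state minus IL-33 -7.83 ± 0.41 (SE), adjusted p = 2.0e-11). Prg2 had 10499.6 CPM in stage IV against 11446 CPM in stage I under IL-33 (-4.69 ± 0.40 (SE), adjusted p = 2.9e-07), and Prg3 had 1877 CPM in stage IV against 4101 CPM in stage I (-5.40 ± 0.51 (SE), adjusted p = 8.8e-07). Of the 7 specific granule genes, 6 differed. Gata2 was lower in stage IV in steady state but higher under IL-33, at 579 CPM in stage IV against 168 CPM in stage I (-4.65 ± 0.51 (SE), adjusted p = 5.9e-06). Cdh1 likewise turned, at 58.2 CPM in stage IV against 6.44 CPM in stage I under IL-33 (-11.63 ± 1.14 (SE), adjusted p = 1.3e-06), and so did Npl, a lyase of sialic acid, at 403 CPM in stage IV against 13.4 CPM in stage I (-6.88 ± 0.66 (SE), adjusted p = 8.8e-07). Itga2b was not called between the stages under IL-33, at 479 CPM in stage IV against 375 CPM in stage I (-4.35 ± 0.39 (SE), adjusted p = 5.3e-07). Bcl2 was not called there either, at 29.2 CPM in stage IV against 31.6 CPM in stage I (-3.57 ± 0.63 (SE), adjusted p = 0.0022).

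Other genes rose more or fell less in steady state. Adam19 was at 386 CPM in stage IV against 5.67 CPM in stage I under IL-33 (5.68 ± 0.76 (SE), adjusted p = 0.0001), and C3ar1 at 347 CPM in stage IV against 11.6 CPM in stage I (5.09 ± 1.35 (SE), adjusted p = 0.036). For both, the mean of stage I was higher under IL-33 than in steady state. The C3ar1 difference lost its call without the first or second stage IV library (4.86 and 4.96, adjusted p = 0.06 and 0.061) or the first or the third stage I library (4.63 and 4.47, adjusted p = 0.091 and 0.11). Itgal was at 236 CPM in stage IV against 61.2 CPM in stage I (1.70 ± 0.36 (SE), adjusted p = 0.0088). Mcm3 (15.3 CPM in stage IV against 381 CPM in stage I, 1.29 ± 0.32 (SE), adjusted p = 0.025) and Mki67 (43.5 CPM in stage IV against 323 CPM in stage I, 1.84 ± 0.40 (SE), adjusted p = 0.01) fell less in steady state. Nrp1, a coreceptor of semaphorins, averaged 6.37 CPM in stage IV against 3.22 CPM in stage I in steady state and 4.16 CPM in stage IV against 72 CPM in stage I under IL-33 (5.10 ± 0.92 (SE), adjusted p = 0.0025). Reads assigned to no gene were fewer under IL-33, between 9.47% and 16.6% in its stage I and IV libraries, and their part in these differences was not tested. With that share as a covariate, 461 genes passed.

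**Figure D5:**
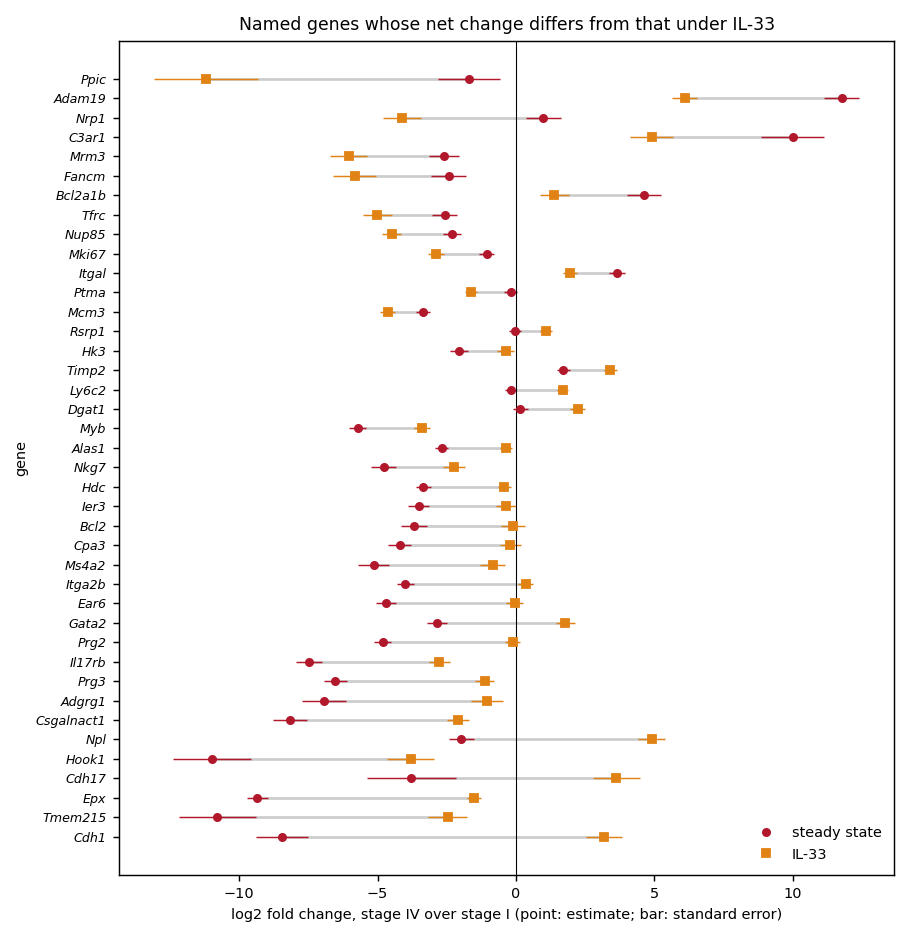
Net log2 fold change of stage IV over stage I (x axis) in steady state (red circles) and under IL-33 (orange squares) for the 40 named genes (y axis) whose net change differs between the conditions, with standard errors as bars. Genes are ordered by the difference, from Ppic at 9.48 to Cdh1 at -11.63, and Epx stands at -9.34 in steady state and -1.51 under IL-33.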

How the data were processed

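Messenger RNA was counted per gene in 24 libraries of sorted mouse bone marrow eosinophil stages. The deposited files hold whole-number counts of reads per gene symbol, used as raw counts. Per the submitters' processing notes, the tools included STAR 2.6.1a and DESeq2 and the build was mm10, while the counting program is not given in the sources used here. Per the labels' protocols, cDNA came from the SMART-Seq v4 kit and was tagged with Nextera XT. These kits do not mark the strand, so reads of overlapping genes on opposite strands are not separable. Reads with no feature and ambiguous reads (1.78% to 2.04% in the 6 libraries compared) were left out of library sizes and tests.

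Of 24982 symbols, 12743 passed edgeR's filter by group. A quasi-likelihood fit of 8 groups over all 24 libraries (edgeR 4.0.16, R 4.3.3, TMM) gave every contrast, with Benjamini-Hochberg adjustment over all genes tested and a threshold of 0.05. The standard error (SE) is the size of the log2 fold change over the square root of F. Kept genes passed 2 one-sided tests against a 2-fold change. The mid-course contrast was the mean of stages II and III minus the mean of stages I and IV. For folds, 0 counts over a group were replaced by a floor of 3, and 1 to 3 counts gave a ratio with its exact 95% interval. These floors and intervals cover counting error only. The design text calls the triplicates biological.

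The members, gene lists and tests were chosen with earlier results of these data known. Named genes were the 12 highest and 12 lowest fold changes whose libraries do not overlap and whose mean in at least 1 stage is 20 CPM, up to 4 called members of each of 50 lists by adjusted p, the 12 kept genes with the highest CPM per kilobase outside the ribosomal proteins, 6 and 6 for each of the mid-course and IL-33 contrasts, and a fixed panel. Other list members named for their values were chosen after those were seen and were not followed through the alternatives. Statements that libraries do not overlap describe genes chosen by fold or adjusted p and add no separate support. Alternatives were DESeq2 1.42.0, limma-voom (limma 3.58.1), other scalings and filters, fewer libraries, leaving out each library, and a replicate block. A covariate of unassigned reads was added after seeing the data. A few genes are not reported here. The fit was tested on simulated data. Positions are from GENCODE M21 on GRCm38, and promoters from RefSeq on GRCm38.p6.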

Additional observations from a re-analysis of the deposited data

Results flagged for a closer look

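For 40 of the named genes the net log2 change from stage I to stage IV differed between steady state and IL-33, by the interaction contrast in edgeR (adjusted p under 0.05). Values are the change in steady state minus that under IL-33. Of these, 13 were above 0. Ppic, a cyclophilin, had the largest (9.48), with 0.678 CPM in stage IV against 2.29 CPM in stage I in steady state and 0 CPM in stage IV against 26.1 CPM in stage I under IL-33, and it rested on the second stage IV library, without which it was 3.42 and not called. Adam19 (5.68), Nrp1 (5.10), C3ar1 (5.09), Bcl2a1b (3.25) and Itgal (1.70) followed among surface and survival genes. Mrm3, which methylates mitochondrial ribosomal RNA (3.45), Fancm, of the Fanconi pathway (3.40), Tfrc, the transferrin receptor (2.43), Nup85 (2.18), Mki67 (1.84), Ptma (1.43) and Mcm3 (1.29) were the others.

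The other 27 were below 0. Granule genes were Epx (-7.83), Prg3 (-5.40), Prg2 (-4.69) and Ear6 (-4.64). Genes of progenitors, basophils and platelets were Adgrg1 (-5.90), Myb (-2.32), Gata2 (-4.65), Itga2b (-4.35), Ms4a2 (-4.30), Cpa3 (-4.00) and Hdc (-2.92). Adhesion and surface genes were Cdh1 (-11.63), Cdh17 (-7.41), Tmem215 (-8.31), Il17rb (-4.70), Ly6c2 (-1.88) and Nkg7 (-2.54). Enzymes were Npl (-6.88), Csgalnact1 (-6.08), Alas1 (-2.33), Dgat1 (-2.08) and Hk3 (-1.67). The rest were Hook1 (-7.17), Bcl2 (-3.57), Ier3 (-3.15), Timp2 (-1.70) and Rsrp1 (-1.11). Hook1, Tmem215 and Cdh17 had no count in stage IV in steady state, so their fitted values depend on the prior count and are not bounds. Without the first or second stage IV library Hook1 (-7.17 and -7.26) and Cdh17 (-7.40 and -7.48) lost their calls, as did Hook1 without the third stage I library (-6.60) and Cdh17 without the second (-3.62). Fancm lost its call without the third libraries (3.13, adjusted p = 0.099 in edgeR) and without the second or the third library of either stage (3.09 to 3.39).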

How the results depend on the processing

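The count of called genes stayed within 1.5 times of 5587 in each alternative, from 4022 in the 12 steady state libraries alone to 6407 with limma-voom, and no gene called in both settings changed direction. Lost genes numbered 99 to 140 and gained genes 69 to 102. The kept count was not stable: 1242 with DESeq2, 1166 with limma-voom, 282 with no filter, 279 without the third libraries, 44 with the covariate of unassigned reads (added after seeing the data), 0 in the 12 libraries alone, 0 in the 6 alone, 0 in the 6 with a replicate block, and 0 to 286 when 1 library was left out. The difference from IL-33 gave 830 genes with DESeq2, 1059 with limma-voom and 270 to 460 when 1 library was left out. The mid-course contrast gave 516 in the 12 libraries alone and 870 with the covariate. The mid-course contrast was not run in the 6 libraries alone, nor the difference from IL-33 in the 6 or the 12, which lack the other groups. The causes were not tested. With the replicate number as a block, 6118 genes were called, 1278 were kept and 785 differed from IL-33. Siglecf was then called higher (0.64 ± 0.20, adjusted p = 0.012 in edgeR), 7 of 16 neutrophil markers were called higher in place of 3, and 3 cytokine genes lower in place of none. In the 6 libraries with the block, 10 of 16 neutrophil markers were higher. The labels do not say that numbers pair libraries. The correlation of deviations of same-numbered libraries was 0.078 to 0.145, not over 0.1 in each pair, although all 6 libraries lay closest to their own number, a hint from the data. Of 4780 values of single genes under the alternatives, 4672 kept their side of the threshold, 92 lost a call, 16 gained one and 0 turned. The calls lost were mostly Prtn3, Cd79a, Cd79b, Cd3g, Klf1, Itgb1, Bcl2l1 and Rps9. With 3 libraries a stage, precision is set by their spread.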
